A study of Homo sapiens with 9 samples.

Results

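Aldehyde dehydrogenases are NAD(P)+-dependent enzymes that oxidize aldehydes to carboxylic acids. The 10 members described here, ALDH1A1, ALDH1A2, ALDH1A3, ALDH1B1, ALDH2, ALDH3A1, ALDH3A2, ALDH6A1, ALDH7A1 and ALDH9A1, were taken by gene name from the deposited table of 58735 genes, and each name was found once. The table holds 19 protein-coding aldehyde dehydrogenase genes, so 9 family genes are outside the set. The family joins several pathways. The ALDH1A enzymes make retinoic acid, the ligand of the nuclear retinoic acid receptors, while other members clear acetaldehyde, lipid-derived fatty aldehydes or the semialdehydes that arise when amino acids are broken down. High aldehyde dehydrogenase activity is a widely used mark of stem-like cells in tumors, pancreatic cancer included, and ALDH1A1 and ALDH1A3 are the members most often linked to it.

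RNA came from MIA PaCa-2, an established human pancreatic carcinoma cell line whose genotype is labelled WT. In each condition 3 samples were kept for 24 h in 0.1% DMSO, in 1 μM SCH772984, an inhibitor of the kinases ERK1 and ERK2, or in 1 μM compound 1, an inhibitor of the kinases TBK1 and IKKε. The labels do not say whether the 3 samples of a condition were grown separately, so p-values measure the spread between these samples, which may be technical. Total counts per library were 9464432 to 10286223 with DMSO, 9652741 to 9840769 with compound 1 and 11056977 to 13887859 with SCH772984. KRT8, KRT18, KRT19 and VIM were detected in every library, EPCAM had 0 counts throughout and CDH1 at most 5, and the summed leukocyte markers stayed at or below 1.46 CPM, the unit of a gene's count relative to its library's total after TMM scaling. Marker levels moved with SCH772984. The summed epithelial markers were at 3470 to 3734 CPM in DMSO, 2973 to 3743 in compound 1 and 1132 to 1279 in SCH772984, where KRT8 and KRT18 were called lower and KRT19 was not called. The summed fibroblast markers were at 465 to 515, 474 to 539 and 1028 to 1167 CPM in the same order, nearly all of it COL1A2, while DCN and LUM had at most 1 count, and COL1A2 and COL3A1 were called higher. COL1A1 was too, but passed the filter only through the SCH772984 libraries. Of the mesenchymal markers, VIM (log2 fold change −0.23, SE 0.06) and ZEB1 (−0.61, SE 0.11) were called lower and FN1 (1.72, SE 0.34), at 1.12 CPM in DMSO and 3.72 in SCH772984, was called higher. The endothelial marker CDH5 was called lower, from 28 to 40 counts per DMSO library to at most 4 with SCH772984, and passed the filter only through the DMSO libraries. The part of these shifts in the results was not tested. In the same comparison 15 of 17 tested MAPK output genes, which report ERK activity, were lower with SCH772984, among them SPRY4, with 232 ± 5.19 CPM (SD, n = 3) in DMSO and 2.01 ± 0.648 CPM in SCH772984, and the transcription factor gene ETV5, with 72.9 ± 1.03 and 0.772 ± 0.0942 CPM. Of the 15, DUSP5, DUSP6, ETV4 and ETV5 passed the filter only through the DMSO libraries. The other 2 of the 17 were higher, among them EPHA4 (log2 fold change 1.48, SE 0.06). Over all genes tested, 35.5% were lower and 37.2% higher in this comparison.

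The members lie on 7 chromosomes in GENCODE release 29 (GRCh38), with ALDH1A1 and ALDH1B1 both on chromosome 9, ALDH1A2 and ALDH1A3 on chromosome 15, and ALDH3A1 and ALDH3A2 close together on chromosome 17. RefSeq promoter windows (GRCh38.p14) were found for 8 members. The stretches that follow belong to the 2 members with the highest counts among those that rose with SCH772984 and to the 2 with the largest falls. They are written 5′ to 3′ along the gene from 250 to 51 bases before the start site, with matches to the letters CCAAT, on either strand, in capitals. For ALDH1A3, only the 30 bases around its match are shown, because they are exonic in an annotated transcript. The other stretches hold 0 exonic bases in GENCODE release 29.
ALDH1A1, chr9:72953104-72953303, minus strand: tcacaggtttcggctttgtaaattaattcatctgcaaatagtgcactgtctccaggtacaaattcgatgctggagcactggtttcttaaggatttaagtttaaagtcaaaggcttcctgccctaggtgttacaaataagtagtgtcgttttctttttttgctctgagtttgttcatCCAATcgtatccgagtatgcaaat
ALDH6A1, chr14:74084504-74084703, minus strand: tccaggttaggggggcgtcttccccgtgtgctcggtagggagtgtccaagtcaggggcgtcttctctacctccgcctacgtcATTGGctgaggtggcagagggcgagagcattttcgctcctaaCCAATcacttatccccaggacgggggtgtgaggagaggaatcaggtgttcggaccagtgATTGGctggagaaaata
ALDH1A3, chr15:100879745-100879774, plus strand: cctccggtcccgcagCCAATtaggcggccc
ALDH1B1, chr9:38392452-38392651, plus strand: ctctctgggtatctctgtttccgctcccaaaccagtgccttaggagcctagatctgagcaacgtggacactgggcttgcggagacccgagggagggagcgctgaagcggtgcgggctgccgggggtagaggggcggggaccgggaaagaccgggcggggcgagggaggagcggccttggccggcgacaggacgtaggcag

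The whole 250 bases before each start site were searched on both strands for 6 motifs, of which AP-1 and the antioxidant response element can match over the same bases. These were AP-1 (TGANTCA), ETS (CCGGAA), the E-box (CACGTG), the CCAAT box (CCAAT), the TATA box (TATAAA) and the antioxidant response element (TGACNNNGC). The CCAAT box was present for ALDH1A1 at 74 to 70 bases, for ALDH1A3 at 71 to 67 bases and for ALDH1B1 at 26 to 22 bases before the start site, and 4 times for ALDH6A1. It was also present for ALDH1A2, for ALDH7A1 and at the second of the 2 ALDH3A2 start sites, and not for ALDH9A1. It occurs in 32.0% of the 35116 promoters in the table. The ETS motif (14.5% of all promoters) was found for ALDH7A1 and the E-box (6.34%) at the second ALDH3A2 start site, while no member window held the letters of AP-1 (6.57%), the TATA box (10.7%) or the antioxidant response element (10.9%). The promoters of the pair that moved furthest apart among the retinoic acid-forming members differ in base composition, with 38.4% G and C for ALDH1A1 and 82.4% for ALDH1A3, against a median of 58.0% over all promoters. These matches describe letters in a window and not sites in use.

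In DMSO, ALDH1A1 was by far the most abundant member. Dividing CPM by exonic gene length, which allows levels of different genes to be compared, ALDH1A1 reached 422 ± 16.9 CPM per kb (SD, n = 3), followed by ALDH9A1 at 28.9 ± 0.705, ALDH1A3 at 23.1 ± 1.31, ALDH1B1 at 20.8 ± 1.15, ALDH3A2 at 18.5 ± 0.664 and ALDH7A1 at 13.9 ± 0.297 CPM per kb. The ranges of neighboring members did not overlap in this order, but ALDH1A3, ALDH1B1 and ALDH3A2 were separated by little more than their spread. ALDH6A1 (2.83 ± 0.301 CPM per kb) and ALDH3A1 (0.307 ± 0.127 CPM per kb) were lower still. ALDH1A2 and ALDH2 were at or near 0 and could not be ordered. The place of ALDH7A1 rests on the length used. Its annotated exons span 17970 bases but its longest coding transcript 4964. By the length of that transcript, an alternative chosen after seeing the data, it came second among the members at 50.4 ± 1.07 CPM per kb. By the same alternative, ALDH3A2 (30.3 ± 1.09) stood above ALDH1B1 (21.4 ± 1.18), and the ranges of ALDH9A1 and ALDH1A3 overlapped.

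**Figure D1:**
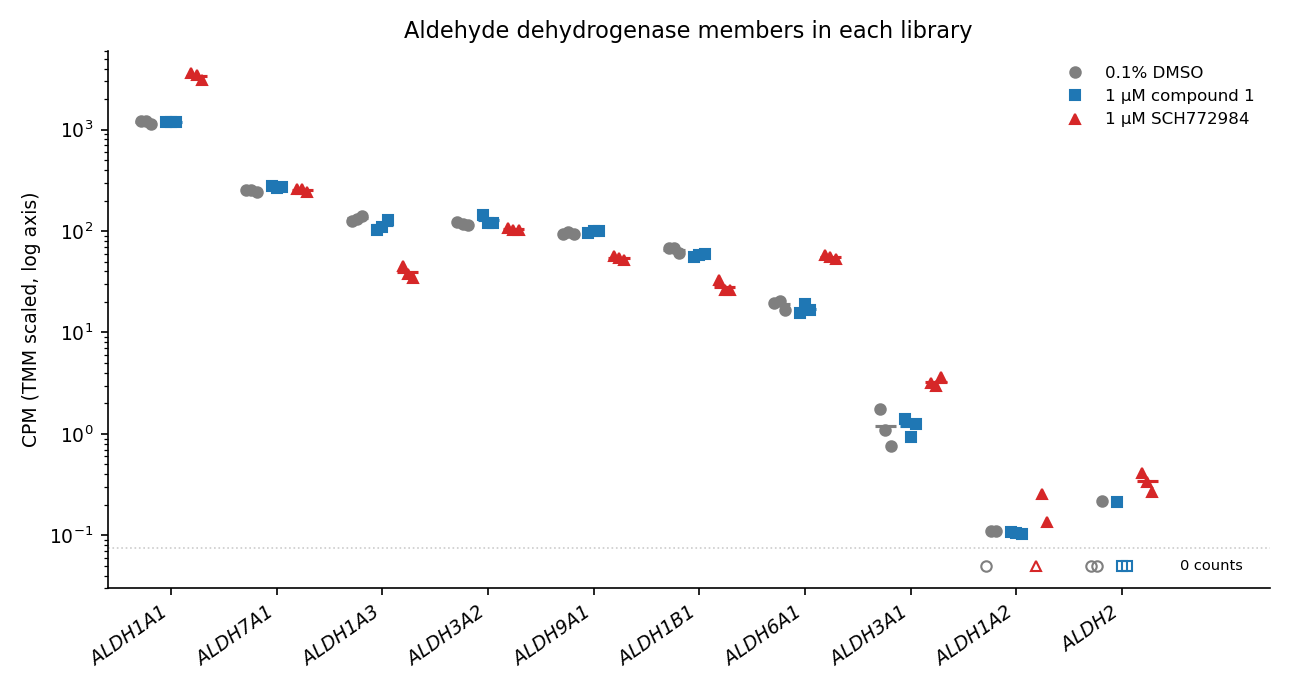
CPM of each member in each of the 9 libraries on a log axis, ordered by the DMSO mean, with horizontal lines at group means and open symbols for libraries with 0 counts. ALDH1A1, ALDH6A1 and ALDH3A1 sit higher with SCH772984 (red triangles), ALDH1A3, ALDH1B1, ALDH9A1 and, by a small margin, ALDH3A2 sit lower, and compound 1 (blue squares) lies close to DMSO (gray circles).

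ERK inhibition moved the members in both directions. Of the 10 members, 8 had enough counts to be tested with SCH772984 against DMSO, and at an adjusted p under 0.05 ALDH1A1, ALDH6A1 and ALDH3A1 were higher, ALDH1A3, ALDH1B1, ALDH9A1 and ALDH3A2 were lower, and ALDH7A1 was not called. The 7 of 8 called must be read against all genes, since 72.8% of the 13834 genes tested were called in this comparison, 37.2% higher and 35.5% lower. The share of members called was thus near that of all genes, and so was their median log2 fold change of −0.09, against 0.03 for all genes. Scaling by library size alone moved the median of all genes to 0.20 and the calls from 5150 higher and 4916 lower to 6242 higher and 3911 lower. Under that scaling ALDH3A2 was no longer called (−0.02, adjusted p = 0.758) and ALDH7A1 was called higher (0.20, adjusted p = 0.00288), while the other 6 members kept their call. RNA was taken from whole cultures, in which a change in the number of expressing cells and a change of RNA per cell cannot be told apart.

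**Figure D2:**
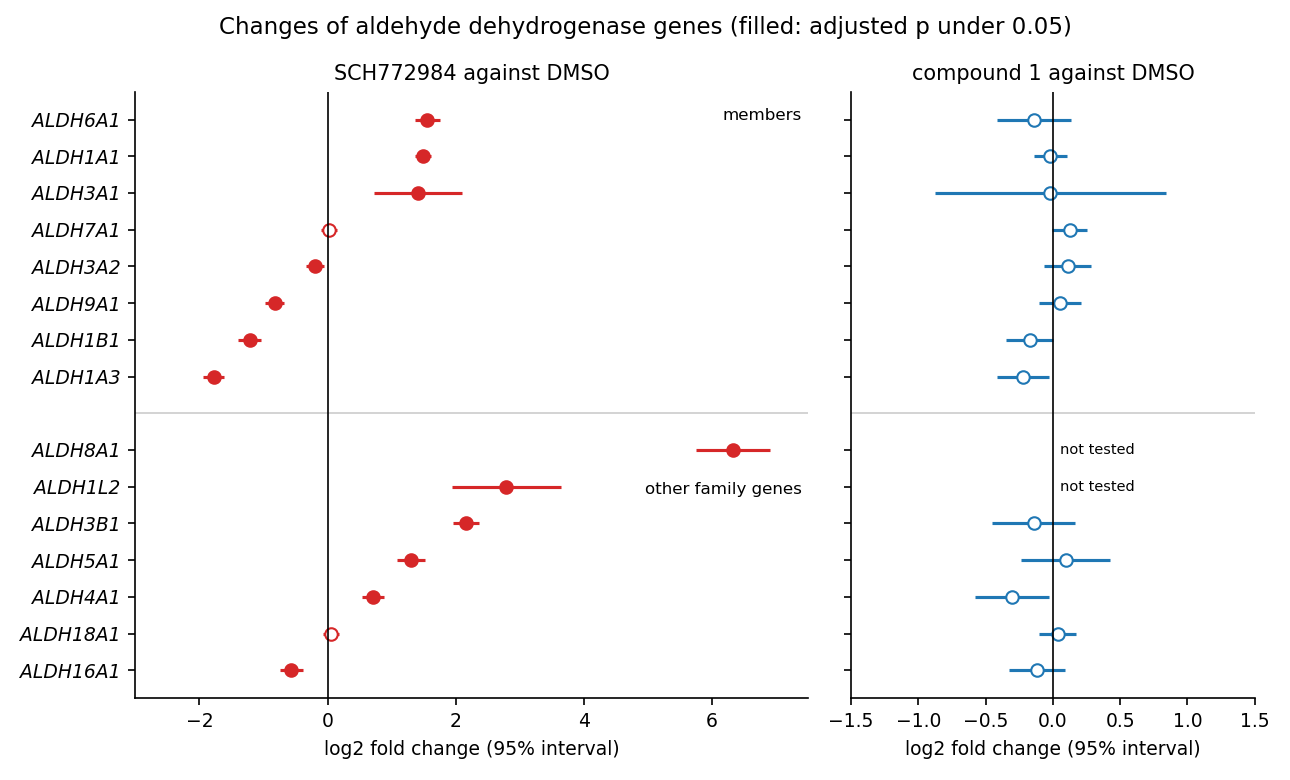
Log2 fold changes with 95% intervals for the 8 tested members and for other tested family genes, 7 with SCH772984 (left) and 5 with compound 1 (right), each against the same 3 DMSO libraries. Filled points have an adjusted p under 0.05. The members spread from −1.78 to 1.55 with SCH772984 and from −0.22 to 0.12 with compound 1, where every point is open, and the axes of the panels differ in scale.

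The retinaldehyde dehydrogenases ALDH1A1 and ALDH1A3, which both turn retinaldehyde into retinoic acid, moved in opposite directions. ALDH1A1 (chr9:72900662-73080442, minus strand) had 1231, 1228 and 1146 CPM in DMSO, 1190, 1179 and 1182 CPM in compound 1 and 3641, 3436 and 3088 CPM in SCH772984. All 3 SCH772984 libraries were far above the other 6, and the DMSO and compound 1 libraries overlapped. The increase with SCH772984 was 2.81-fold (95% interval 2.57 to 3.07; log2 fold change 1.49, SE 0.06, adjusted p = 6.71e-25), and 10.9% of the genes tested had a larger log2 fold change. It rested on 10473 to 12011 reads per DMSO library and 40709 to 45996 per SCH772984 library. The pseudogene CYP1D1P, which lies within ALDH1A1 on the opposite strand, shares no exonic bases with it and had at most 3 counts.

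ALDH1A3 (chr15:100877714-100916626, plus strand) had 126, 133 and 141 CPM in DMSO, 102, 111 and 129 CPM in compound 1 and 45.0, 38.0 and 34.4 CPM in SCH772984. The SCH772984 libraries were all below the other 6. The gene was 3.42-fold lower with SCH772984 than with DMSO (log2 fold change −1.78, SE 0.08, adjusted p = 7.04e-23), the largest fall among the members tested. Its exons share 1585 bases with the antisense gene AC015712.2, which had 34 to 65 counts per library against 450 to 1286 for ALDH1A3. The strand setting of the counting is not given in the sources used here, so reads from the shared bases cannot be told apart. Within each library, the count of ALDH1A1 divided by that of ALDH1A3, which does not depend on library scaling, was 9.06 ± 0.844 with DMSO, 10.5 ± 1.26 with compound 1 and 87.0 ± 5.28 with SCH772984 (SD, n = 3).

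The third retinaldehyde dehydrogenase, ALDH1A2 (chr15:57953424-58497866, minus strand), was at the limit of detection. Its counts were 0, 1 and 1 in DMSO, 1, 1 and 1 in compound 1 and 0, 3 and 2 in SCH772984. Totals of 2 and 5 reads give a depth-corrected ratio of SCH772984 to DMSO of 1.80, with a 95% counting interval of 0.295 to 18.9, so no difference was detectable at this depth.

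Of the mitochondrial pair that oxidizes acetaldehyde, ALDH1B1 carried nearly all counts. ALDH1B1 (chr9:38392664-38398661, plus strand) had 67.7, 67.5 and 61.3 CPM in DMSO, 55.6, 58.2 and 59.9 CPM in compound 1 and 32.6, 26.4 and 26.2 CPM in SCH772984. The 3 groups did not overlap. The fall with SCH772984 was 2.32-fold (log2 fold change −1.21, SE 0.09, adjusted p = 3.13e-16), whereas the lower values with compound 1 did not pass the test (log2 fold change −0.17, SE 0.08, adjusted p = 0.343). ALDH2 (chr12:111766887-111817529, plus strand), the main enzyme of acetaldehyde removal after alcohol intake, had 0, 0 and 2 counts in DMSO, 2, 0 and 0 in compound 1 and 5, 4 and 4 in SCH772984. Every SCH772984 library was above the DMSO libraries, with a depth-corrected ratio of totals of 4.69 and a 95% counting interval of 1.06 to 42.8 that covers counting error only. ALDH2 did not pass the filter and was not tested. Its exons share 680 bases on the same strand with AC002996.1, which had at most 3 counts, and reads from these bases cannot be told apart by strand.

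The ALDH3 pair also parted. ALDH3A1 (chr17:19737984-19748943, minus strand), which oxidizes aromatic and medium-chain aldehydes and is abundant in the cornea, was scarce, at 1.74, 1.10 and 0.766 CPM in DMSO, 1.40, 0.940 and 1.25 CPM in compound 1 and 3.16, 2.95 and 3.62 CPM in SCH772984. These are 7 to 17 counts in DMSO and 35 to 54 in SCH772984, and the SCH772984 libraries were above all others. The rise was 2.66-fold (95% interval 1.66 to 4.26; log2 fold change 1.41, SE 0.34, adjusted p = 0.00027). It is the least precise change among the members called.

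ALDH3A2 (chr17:19648136-19677598, plus strand) encodes the fatty aldehyde dehydrogenase of the endoplasmic reticulum, which is deficient in Sjögren-Larsson syndrome. It had 124, 118 and 116 CPM in DMSO, 144, 120 and 121 CPM in compound 1 and 107, 104 and 102 CPM in SCH772984. The SCH772984 libraries were below the rest by a narrow margin, and compound 1 replicate 1 was the highest. The fall with SCH772984 was small (log2 fold change −0.20, SE 0.07, adjusted p = 0.00827). It also lost its call when at least 10 counts were required in every library (−0.12, adjusted p = 0.105).

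The remaining members serve amino acid breakdown and carnitine synthesis. ALDH6A1 (chr14:74056850-74084493, minus strand), the mitochondrial methylmalonate semialdehyde dehydrogenase of valine and pyrimidine breakdown, had 19.7, 20.4 and 16.6 CPM in DMSO, 15.6, 18.9 and 16.8 CPM in compound 1 and 58.5, 56.1 and 52.9 CPM in SCH772984. The SCH772984 libraries stood well above the others, a 2.93-fold rise (95% interval 2.56 to 3.36; log2 fold change 1.55, SE 0.10, adjusted p = 7.40e-19). Its exons share 670 bases with BBOF1 on the opposite strand, which had 5 to 14 counts in the DMSO and compound 1 libraries and 34 to 40 in SCH772984, against 665 to 788 for ALDH6A1 in SCH772984. The part of these shared bases in the rise was not tested.

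ALDH9A1 (chr1:165662216-165698863, minus strand), which forms the carnitine precursor butyrobetaine, had 94.2, 98.3 and 94.3 CPM in DMSO, 96.8, 100.4 and 99.1 CPM in compound 1 and 56.6, 53.9 and 52.2 CPM in SCH772984. The SCH772984 libraries were all lower, by 1.77-fold (log2 fold change −0.82, SE 0.07, adjusted p = 1.36e-13).

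ALDH7A1 (chr5:126531200-126595418, minus strand), or antiquitin, oxidizes the aminoadipic semialdehyde of lysine breakdown. It had 254, 252 and 244 CPM in DMSO, 276, 268 and 272 CPM in compound 1 and 258, 262 and 245 CPM in SCH772984. The DMSO and SCH772984 libraries overlapped, and the interval of the log2 fold change ran from −0.10 to 0.14. All compound 1 libraries were above all DMSO libraries, but the difference did not pass the test (log2 fold change 0.12, SE 0.06, adjusted p = 0.358). Its pseudogene ALDH7A1P1 had 2 to 5 counts per library, and 5 other pseudogenes had none.

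These changes altered the make-up of the members' transcripts. ALDH1A1 held 79.6 ± 0.454% of the summed CPM per kb of the 10 members with DMSO, 79.7 ± 0.301% with compound 1 and 94.3 ± 0.206% with SCH772984 (SD, n = 3). Without division by length these shares were 63.7%, 63.2% and 86.2%. The sum over the other 9 members went from 108 ± 1.61 CPM per kb with DMSO to 71.8 ± 3.72 with SCH772984, while the sum over all 10 went from 530 ± 18.4 to 1261 ± 102. After ALDH1A1, the order in SCH772984 was ALDH9A1 (16.4 ± 0.678 CPM per kb) and ALDH3A2 (16.2 ± 0.386), whose ranges overlapped, then ALDH7A1 (14.2 ± 0.471), ALDH1B1 (8.30 to 10.3) and ALDH6A1 (8.36 ± 0.417), of which the last 2 overlapped, and ALDH1A3 (6.78 ± 0.929). This order also rests on the length used. By the longest coding transcript it was ALDH7A1 (51.4 ± 1.71 CPM per kb), ALDH3A2 (26.6 ± 0.634) and ALDH9A1 (20.1 ± 0.832), with ranges apart. ALDH6A1, ALDH1A3 and ALDH1B1 then followed at 10.15, 9.97 and 9.26, with overlapping ranges. In raw counts, ALDH6A1 went from 0.288 ± 0.0158 of the ALDH1B1 count with DMSO to 1.98 ± 0.169 with SCH772984.

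**Figure D3:**
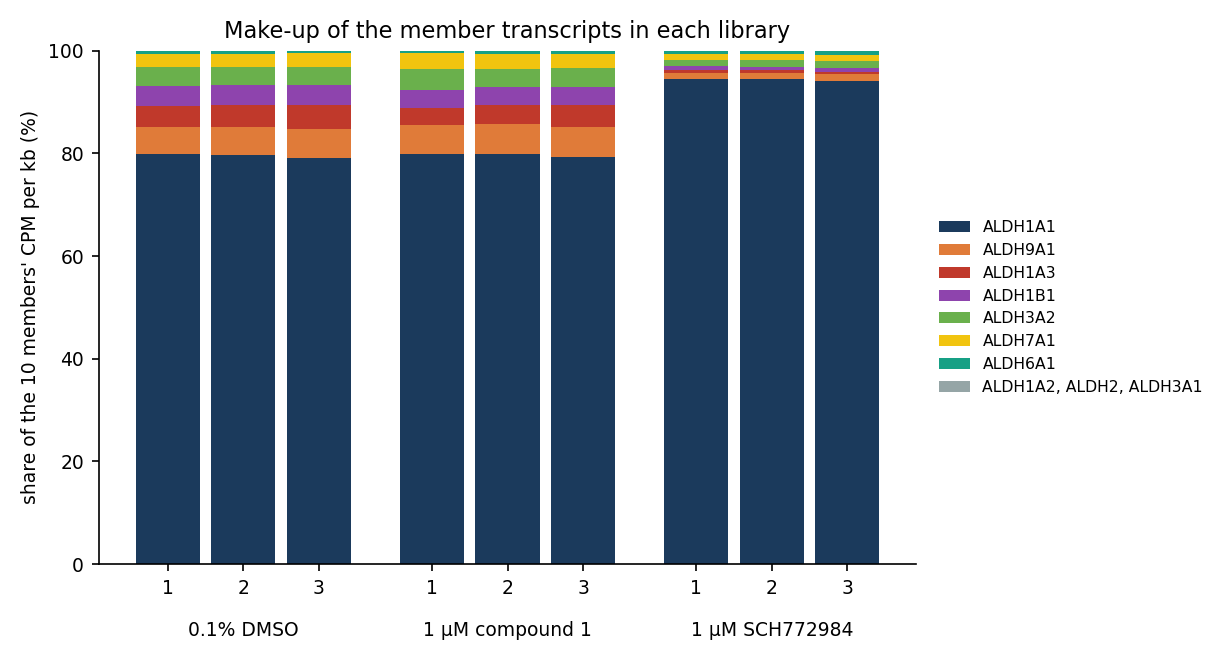
Share of the 10 members' summed CPM per kb (%) held by each member in each library, stacked to 100%, for 3 libraries per condition. ALDH1A1 (dark blue) fills 79.1 to 79.9% of every DMSO and 79.4 to 79.9% of every compound 1 library, and 94.1 to 94.4% of every SCH772984 library.

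Inhibition of TBK1 and IKKε with compound 1 left no member called. edgeR called 0 of 8 tested members at an adjusted p under 0.05, against 0.864% of all 12849 genes tested, and DESeq2 called 0 of the 7 members to which it gave an adjusted p. At an unadjusted p under 0.05, 0 members were higher and 1, ALDH1A3, was lower (log2 fold change −0.22, SE 0.09, 95% interval −0.41 to −0.03, adjusted p = 0.264), beside 7.35% of all genes higher and 7.69% lower at this threshold. For the best-measured members the intervals were narrow, from −0.14 to 0.10 for ALDH1A1, −0.01 to 0.26 for ALDH7A1 and −0.11 to 0.21 for ALDH9A1. For ALDH3A1 the interval of −0.88 to 0.84 left changes of well over 1.5-fold undetected. Compound 1 replicate 1 stood apart from its group, with a chi-square per degree of freedom of 11.1 and 8.29 against replicates 2 and 3, which gave 2.78 between them. Without it, 0 members were called, against 9.56% of all 13084 genes tested. The comparisons of the 2 inhibitors with DMSO share the DMSO libraries, so their values are given side by side only.

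Compared directly at the matched dose and time, SCH772984 and compound 1 differed for 7 of the 8 members tested. ALDH1A1 (log2 fold change 1.52, SE 0.08), ALDH6A1 (1.70, SE 0.11) and ALDH3A1 (1.44, SE 0.32) were higher with SCH772984, beside 33.7% of all genes, and ALDH1A3 (−1.55, SE 0.11), ALDH1B1 (−1.03, SE 0.11), ALDH9A1 (−0.86, SE 0.09) and ALDH3A2 (−0.30, SE 0.09) were lower, beside 32.6%. The adjusted p-values ran from 2.11e-12 for ALDH1A1 to 0.00689 for ALDH3A2. ALDH7A1 was not called (−0.09, 95% interval −0.25 to 0.07). By library size alone, ALDH3A2 lost its call here too (−0.16, adjusted p = 0.112).

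Of the other 9 aldehyde dehydrogenase genes, 7 passed the filter with SCH772984 against DMSO, of which 5 were higher and 1 lower, beside 37.2% and 35.5% of all genes. The 5 became 3 when at least 10 counts were required in every library, and the difference from the members was not tested. The lower gene was ALDH16A1 (−0.57, SE 0.09, adjusted p = 3.15e-07), and ALDH18A1, which makes the proline precursor pyrroline-5-carboxylate, was not called (0.05, SE 0.06). ALDH8A1, an enzyme of the kynurenine pathway of tryptophan breakdown, went from 5, 1 and 1 counts in DMSO to 262, 261 and 288 in SCH772984, a ratio of totals of 83.5 with a 95% counting interval of 40.3 to 208 (adjusted p = 7.42e-24). ALDH1L2, the mitochondrial 10-formyltetrahydrofolate dehydrogenase, went from 7, 1 and 5 counts to 41, 44 and 42 (adjusted p = 1.10e-07). Both passed the filter only through the SCH772984 libraries, so their calls say little beyond the counts. ALDH3B1, which acts on lipid aldehydes at membranes, rose 4.48-fold (log2 fold change 2.16, SE 0.10), the succinic semialdehyde dehydrogenase ALDH5A1 rose 2.47-fold (1.31, SE 0.11), and ALDH4A1, the proline-breakdown enzyme that works opposite to ALDH18A1, rose 1.63-fold (0.71, SE 0.08). ALDH16A1 shares 152 exonic bases with PIH1D1, ALDH1L2 145 with C12orf45, ALDH5A1 239 with GPLD1, ALDH8A1 42 with AL445190.1 and ALDH1L1 251 with ALDH1L1-AS1 and 233 with ALDH1L1-AS2, all on the opposite strand. Over the 9 libraries, PIH1D1 had 292 to 571 counts beside 376 to 610 for ALDH16A1. C12orf45 had 95 to 141 beside 1 to 44 for ALDH1L2, and GPLD1 5 to 40 beside 125 to 586 for ALDH5A1. The part of these shared bases in the changes was not tested. On the same strand, where strand cannot separate reads, ALDH4A1 shares 1517 exonic bases with AL080251.1, which had at most 1 count. ALDH16A1 shares 337 in this way with AC010619.1, which had 0 counts. Among the members, same-strand exonic bases are also shared by ALDH1A3 (63 with AC015712.5) and ALDH9A1 (103 with RF00019), and opposite-strand ones by ALDH1A2 (354 with AQP9 and 209 with AC025431.1), ALDH3A1 (98 with AC005722.3) and ALDH9A1 (96 with AL451074.1). None of these partners of members had more than 4 counts in a library.

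ALDH1L1, the cytosolic relative of ALDH1L2, had 0 counts in all DMSO libraries and 8, 3 and 11 in SCH772984, which is 5.29-fold higher against a floor of 3 counts over the DMSO group. The lower 95% counting bound of the ratio of totals was 3.95. ALDH3B2 had 0 counts with either of these treatments. With compound 1, edgeR and DESeq2 called 0 of the 5 of these genes tested. ALDH4A1 alone had an unadjusted p under 0.05 (log2 fold change −0.30, SE 0.13, adjusted p = 0.278), and leaving out compound 1 replicate 1 moved it to −0.50, with an adjusted p of 0.000527.

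Of the genes around the retinaldehyde dehydrogenases, more were higher than lower with SCH772984. Of 12 tested retinoid metabolism genes, 8 were higher and 2 lower, beside 37.2% and 35.5% of all genes. Their median log2 fold change was 0.50. The 8 became 6 without DMSO replicate 2, 7 with DESeq2 and 9 by library size alone. RBP4, counted among the 8, passed the filter only through the SCH772984 libraries. DHRS3, which reduces retinaldehyde back to retinol, rose from 10.2 ± 1.53 to 50.4 ± 1.76 CPM (log2 fold change 2.29, SE 0.11, adjusted p = 9.63e-23) and the retinol saturase RETSAT rose (0.95, SE 0.07, adjusted p = 1.29e-16). FABP5, which carries fatty acids and retinoic acid to PPARδ, fell (−1.71, SE 0.16, adjusted p = 7.33e-13), as did RDH13 (−0.56, SE 0.12, adjusted p = 6.67e-05). Of 5 tested receptors, 3 were higher, led by RARG (1.17, SE 0.10, adjusted p = 2.14e-14) and RXRB (0.28, SE 0.08, adjusted p = 0.00199), and RARA was lower (−0.54, SE 0.15, adjusted p = 0.00162).

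Other aldehyde-handling enzymes were compared too. Of 7 alcohol dehydrogenases, ADH5 alone was tested and was not called (0.12, SE 0.07, adjusted p = 0.116), but it was called higher without SCH772984 replicate 3, by library size alone and with at least 10 counts in every library. Of 11 tested aldo-keto and carbonyl reductases, which reduce aldehydes and ketones to alcohols, 7 were higher and 1 lower, with a median of 0.63. AKR1C2 went from 4.39 ± 0.775 to 53.9 ± 7.77 CPM (log2 fold change 3.60, adjusted p = 1.20e-25). AKR1C3, counted among the 7, went from 2 to 4 counts per DMSO library to 269 to 375 with SCH772984 and passed the filter only through the latter. The AKR1C genes are close relatives in sequence, between which the counting may have split reads. The 1 lower gene was CBR3 (−1.44, SE 0.29). Of 16 targets of the antioxidant factor NRF2, 10 were higher and 3 lower (5 lower without SCH772984 replicate 3, with TALDO1 and FTH1 added). HMOX1, which breaks down heme, rose (1.35, SE 0.15, adjusted p = 1.70e-06), as did the NADPH-forming malic enzyme ME1 (1.31, SE 0.08, adjusted p = 4.81e-19), and GCLM, a subunit of the enzyme that starts glutathione synthesis, fell from 307 ± 1.42 to 60.8 ± 2.82 CPM (−2.35, SE 0.07, adjusted p = 3.99e-31). The sulfiredoxin gene SRXN1 also fell (−1.65, SE 0.13, adjusted p = 1.49e-15).

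The routes that ALDH6A1, ALDH7A1, ALDH9A1 and ALDH3A2 belong to were read in the same way. In valine, leucine and isoleucine breakdown, the route of ALDH6A1, 14 of 23 tested genes were higher and 1 lower (median 0.44), among them the dehydrogenase subunit BCKDHB (1.67, SE 0.09, adjusted p = 2.38e-20) and MMUT, methylmalonyl-CoA mutase (1.40, SE 0.08, adjusted p = 3.66e-20). The lower gene was BCAT1, the cytosolic transaminase of this route, whose counts ran from 39 to 49 in the DMSO libraries and from 1 to 11 in those with SCH772984. It passed the filter only through the DMSO libraries, and 0 genes were lower when at least 10 counts were required in every library. A second, ECHS1, was added without DMSO replicate 3 or SCH772984 replicate 3. In lysine breakdown, the route of ALDH7A1, 1 of 6 tested genes was higher, AASS (2.32, SE 0.30), and 2 were lower, DHTKD1 (−0.55, SE 0.07) and DLST (−0.44, SE 0.07).

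Around ALDH9A1, 3 of 4 tested genes of carnitine synthesis and uptake were higher and 1 lower. The carnitine transporter SLC22A5 rose (1.07, SE 0.08, adjusted p = 1.44e-15) and SHMT2 fell (−1.12, SE 0.07, adjusted p = 3.07e-19), while the calls of TMLHE (0.50, SE 0.17) and SHMT1 were lost without DMSO replicate 2 or without SCH772984 replicate 1, which left 1 higher. Around ALDH3A2, 5 of 10 fatty aldehyde and sphingosine-1-phosphate genes were higher and 4 lower (3 higher without DMSO replicate 2, with SPHK2 and SGPP1 lost). The lipid phosphatase PLPP1 rose (2.55, SE 0.08), as did PHYH (1.94, SE 0.10), and PLPP3 (−1.34, SE 0.14) and FAR2 (−1.16, SE 0.17) fell. These counts stand beside the 37.2% of all genes that were higher and the 35.5% that were lower, and no list was tested against other genes. Against compound 1, the transketolase gene TKT (1.41, SE 0.09), the receptor gene RXRA (0.39, SE 0.09) and OGDH of the oxoglutarate dehydrogenase complex (0.22, SE 0.08) were among the largest rises of their lists with SCH772984. PPM1K, counted as higher in valine, leucine and isoleucine breakdown, also passed the filter only through the SCH772984 libraries.

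**Figure D4:**
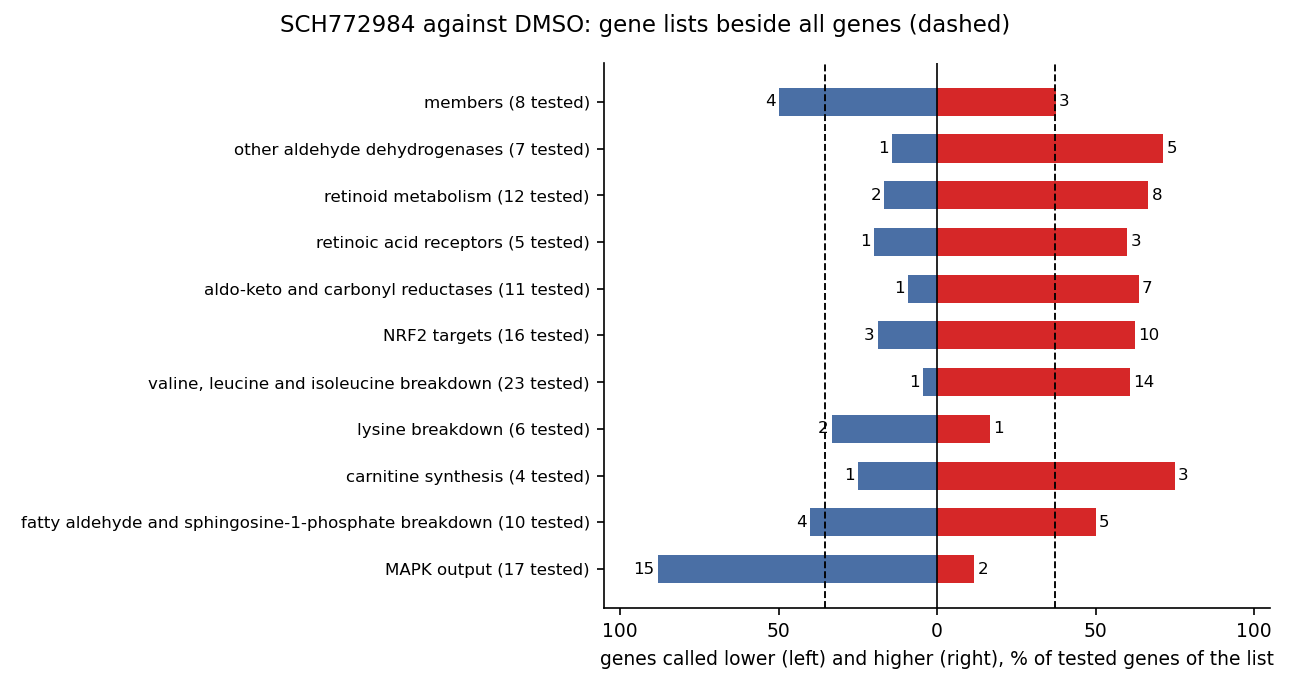
Percentage of the tested genes of each list called higher (red, right) or lower (blue, left) with SCH772984 against DMSO, with the number of genes at each bar end and dashed lines at the values for all genes (37.2% higher, 35.5% lower). The members lie near the dashed lines with 3 higher and 4 lower of 8, while valine, leucine and isoleucine breakdown has 14 higher and 1 lower of 23, and MAPK output has 2 higher and 15 lower of 17.

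With compound 1, edgeR and DESeq2 called 0 genes of these 9 lists. At an unadjusted p under 0.05, edgeR gave 1 retinoid gene, 4 NRF2 targets and 1 gene of valine, leucine and isoleucine breakdown lower, and 2 genes of that breakdown and 1 fatty aldehyde gene higher. Without compound 1 replicate 1, adjusted calls appeared in 5 of the lists, among them 4 lower NRF2 targets and 2 higher genes of valine, leucine and isoleucine breakdown, in a fit where 3.46% of all genes were higher and 6.10% lower.

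For each tested member, the gene with the most similar profile was sought by Pearson's r of log2(CPM + 1) over the 9 libraries among genes with a mean of at least 5 CPM. These libraries form 3 groups, and members that separate SCH772984 from the rest have many close neighbors. ALDH1A1 was closest to CFL2, which encodes the actin-binding protein cofilin 2 (r = 0.998), and 1097 of 10476 genes reached an r of 0.95. ALDH1A3 was closest to the pseudouridine synthase gene PUS7 (r = 0.997), ALDH1B1 to the proteasome subunit gene PSMD1 (r = 0.997), ALDH6A1 to CCDC92 (r = 0.998) and ALDH9A1 to SMIM15 (r = 0.999). ALDH3A1 was closest to TPPP (r = 0.990) and ALDH3A2 to the ribosomal protein gene RPS26 (r = 0.993). ALDH7A1 had no gene at 0.95, with PERP the nearest (r = 0.914).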

How the data were processed

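Read counts per gene, deposited by the authors as whole numbers without normalization for 9 libraries, were used as they stand. Per the labels' processing notes, HISAT2 2.0.5 and featureCounts 1.5.0-p3 were used with hg38; the strand setting is not given in the sources used here. All 58735 identifiers, coordinates and lengths match GENCODE release 29. Libraries were grouped by their labels, and the groups were compared in pairs with edgeR 4.0.16 (R 4.3.3) by its robust quasi-likelihood test, TMM factors and the filter filterByExpr, which asked for 10 counts in enough libraries and 15 in total. Calls were made at a Benjamini-Hochberg adjusted p under 0.05 over all genes tested. CPM used TMM factors over all 9 libraries, and CPM per kb the exonic gene length in the table. A count of 0 was set to a floor of 3 counts over the group, and counting intervals are exact binomial 95% intervals. In data simulated for SCH772984 against DMSO on 12915 genes, 96.0% of 200 genes changed by 1 on the log2 scale were recovered. The simulation gave every gene the same spread and held as many rises as falls. It changed only genes above a minimum level in DMSO. It checks the procedure and does not measure power for these data or for scarce genes such as ALDH3A1.

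The members and lists were chosen with earlier results of these data known. Named were all members, other family genes with at least 10 counts in total, genes that share exons with a member, 1 gene with the most similar profile per member, and of each list the 2 largest rises and falls among called genes with a mean of at least 5 CPM; CBR3, BCAT1, AASS, ADH5, COL1A1, FN1, CDH5, DUSP5, DUSP6, ETV4, RBP4, PPM1K, ALDH3B2, the markers KRT19, EPCAM, CDH1, DCN and LUM, and genes whose call depends on 1 library were named after their values were seen. Genes that overlap a member without shared exonic bases, which the naming rule also covers, are left unnamed except CYP1D1P. Alternatives were library size alone, RLE factors, 2 other filters, all 9 libraries in one fit, a replicate block, the unadjusted p, DESeq2 1.42.0, leaving out each library in turn and other gene lengths.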

Additional observations from a re-analysis of the deposited data

How the results depend on the processing

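Of 103 values that members took under the alternatives with SCH772984 against DMSO, 97 kept direction and side of the threshold, as did 97 of 102 with compound 1 and 101 of 103 between the inhibitors. The exceptions with SCH772984 against DMSO, beside those of ALDH3A2 and ALDH7A1 in the report (−0.02 and 0.20 by library size alone, −0.12 with at least 10 counts in every library), were slightly negative values of ALDH7A1 with no filter (−0.01455), and, over the fits that leave out 1 library (−0.01498 to 0.0442), without DMSO replicate 3 and without SCH772984 replicate 2 (−0.001427). ALDH18A1 was called higher by library size alone (0.23, adjusted p = 0.000961). Between the inhibitors, library size alone ended the call of ALDH3A2 (−0.16, adjusted p = 0.112) and turned ALDH7A1 (0.0437), and ALDH18A1 turned with no filter (−0.0004011) and in the absence of compound 1 replicate 3 (leave-one-out range −0.008566 to 0.0476). With compound 1, library size alone turned ALDH1A1 (0.0105) and ALDH3A1 (0.008664). ALDH3A1 also turned when DMSO replicate 1 or compound 1 replicate 2 (0.12) was left out, over a range of −0.26 to 0.35, and ALDH5A1 when compound 1 replicate 2 was, over −0.0941 to 0.20. None of these was called. The members lower with compound 1 numbered 1 at an unadjusted p under 0.05. Requiring 10 counts in every library left ALDH3A1 untested. In their deviations from group means, same-numbered samples of different groups correlated at −0.102 to 0.155 and differently numbered ones at −0.147 to 0.21. With 3 samples per group, these values cannot tell whether same-numbered samples were handled together. With the replicate block no member's call changed, and ALDH3A1 with compound 1 was 0.005854. Over all genes the block raised the calls with compound 1 from 63 higher and 48 lower to 193 and 219. The cause of these shifts was not tested. Over all genes, those calls were 85 and 25 when scaled by library size, 189 and 228 with every gene kept, 91 and 97 in one fit and 117 and 119 with DESeq2. They totaled 8 to 17 without one DMSO library, 453 and 798 without compound 1 replicate 1, 27 and 24 without replicate 2 and 15 and 6 without replicate 3. Counts over the lists moved by more than 1.5 times in 13, 22 and 10 of 308 cases each for SCH772984, compound 1 and the direct comparison. Depth limits ALDH1A2, ALDH2 and, with compound 1, ALDH3A1.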
